A study of Mus musculus with 9 samples.

Results

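The genes described are 10 members of the MHC antigen presentation system, picked by name from the liver count table: 6 class II genes (H2-Aa, H2-Ab1, H2-Eb1, H2-DMa, H2-DMb1 and Ciita) and 4 class I genes (H2-K1, H2-D1, B2m and Tap1). All 10 were in the table of 27179 genes, all 10 passed the filter on low counts, and 16860 genes in all were tested. The data are bulk RNA-seq profiles of liver from female Apoe-/- mice (5 libraries) and female Mif-2-/-Apoe-/- littermates (4 libraries), which were put on a cholesterol-rich high-fat diet (HFD) at 8 weeks of age and kept on it for 12 weeks. Both groups therefore lack apolipoprotein E, have a C57BL/6 background and differ in Mif-2 (gene symbol Ddt), whose product MIF-2, also called D-dopachrome tautomerase, is a MIF family cytokine. The deletions are constitutive and affect every cell type. Each library was made from lysates of several pooled sections of frozen liver, so that hepatocytes, Kupffer cells, endothelium and blood cells entered in whatever proportion the sections held them. The comparison asks how loss of Mif-2 altered the liver transcriptome of hyperlipidemic mice.

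Class II molecules display peptides from endocytosed proteins to CD4+ T cells. Their alpha and beta chains (H2-Aa with H2-Ab1, and H2-Eb1 with the chain of H2-Ea) are assembled on the invariant chain CD74, which is cleaved by endosomal proteases, and H2-DM, a dimer of the H2-DMa and H2-DMb1 products, removes its last fragment so that peptide can bind. CIITA is the coactivator that switches these genes on, in the liver mainly in Kupffer cells, dendritic cells and B cells. Class I molecules consist of a heavy chain (H2-K1, H2-D1) and beta-2-microglobulin (B2m), occur on almost all nucleated cells, hepatocytes included, and present peptides that the transporter TAP (Tap1 with Tap2) moves into the endoplasmic reticulum. CD74 on the cell surface is also a receptor for MIF and MIF-2.

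Of the 10 members, 8 lie in the H2 complex on chromosome 17, Ciita lies on chromosome 16 (chr16:10480059-10528418) and B2m on chromosome 2 (chr2:122147686-122153083; GRCm38, GENCODE M21). The promoter stretches below are shown because they hold the shared elements through which the families are known to be regulated as groups. They were read from RefSeq promoter windows of GRCm38.p6, which reach from 250 bases before to 50 bases after each start and were found for 8 of the 10 members. In the class II stretches, capitals mark the X box core, searched as CTNGNAACT, and the Y box core, searched as CCAAT and read here as ATTGG. The stretches are chr17:34287862-34287912 (minus strand, from 89 to 39 bases before the start) for H2-Aa, chr17:34305768-34305817 (plus strand, from 99 to 50 bases before the start) for H2-Eb1, and chr17:34153089-34153139 (plus strand, from 102 to 52 bases before the start) for H2-DMb1.
H2-Aa: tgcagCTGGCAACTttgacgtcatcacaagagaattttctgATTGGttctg
H2-Eb1: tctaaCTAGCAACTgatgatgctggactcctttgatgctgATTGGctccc
H2-DMb1: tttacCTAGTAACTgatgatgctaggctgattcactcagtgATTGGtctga
The X and Y cores were 27, 26 and 27 bases apart in the order shown. Searched on both strands, with overlaps between motifs allowed, the X core was found in 4.1% and the Y core in 37.4% of 32851 promoter windows, and among the 8 member windows in 3 and in 8. H2-DMa, whose window held the Y core, had no match to these X core letters.

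In the class I stretches, capitals mark the enhancer A core, searched as GGGATTCCC, and an interferon-stimulated response element, searched as GTTTCNNTT. They are chr17:34000425-34000462 (minus strand, from 115 to 78 bases before the start) for H2-K1, chr17:35262919-35262956 (plus strand, from 175 to 138 bases before the start) for H2-D1, and, for comparison, chr17:35469909-35469946 (plus strand, from 180 to 143 bases before the start) for H2-Q10, a class I gene expressed mainly in liver.
H2-K1: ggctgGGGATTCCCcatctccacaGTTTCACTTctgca
H2-D1: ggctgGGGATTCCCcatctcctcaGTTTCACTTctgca
H2-Q10: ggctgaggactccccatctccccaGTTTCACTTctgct
Both cores were present, 10 bases apart, in H2-K1 and H2-D1, the only member windows with either of them, and the interferon element alone was matched in the H2-Q10 stretch. The enhancer A core was found in 0.353% and the interferon element in 5.77% of the 32851 windows. All 4 motifs were chosen after the sequences had been seen, and a match is a description of the letters.

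Total counts ranged from 2318148 to 10764182 per library. Ddt, the deleted gene, was measured at 658 ± 283 CPM in Apoe-/- and 4.18 ± 1.45 CPM in Mif-2-/-Apoe-/- livers (SD, n = 5 and n = 4), so each library followed its Mif-2 label, whereas Apoe still gave reads in every library (768 to 2299 CPM), which is no check of that deletion. CPM here are counts scaled to a common library size after TMM normalization, without the 10 most abundant genes in that size. The hepatocyte gene Alb, at 23607 to 89138 CPM, was abundant in all 9 libraries. The libraries differed in composition: the 10 most abundant genes took 20.5% to 23.7% of all counts in Apoe-/- replicates 1 to 4 and 26.3% in Mif-2-/-Apoe-/- replicate 2, but 14.7% in Apoe-/- replicate 5 and 12.5% to 17.0% in Mif-2-/-Apoe-/- replicates 1, 3 and 4. This division crosses the genotypes at one library on each side, and several members followed it. In bulk tissue, fewer cells of a type and less RNA per cell cannot be told apart.

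The class II genes were lower on average in Mif-2-/-Apoe-/- livers, apart from Ciita. Of the class I genes, H2-K1, H2-D1 and B2m had lower means there and Tap1 a higher one. The log2 fold change of B2m (-0.75) was close to that of H2-Eb1 (-0.77). The summed level of the 6 class II genes was 880.4 ± 319 CPM in Apoe-/- (range 399 to 1209, n = 5) and 433 ± 103 CPM in Mif-2-/-Apoe-/- livers (range 347 to 582, n = 4), a 2.03-fold difference in means with overlapping ranges. For the 4 class I genes it was 3076 ± 833 and 2348 ± 395 CPM, a 1.31-fold difference. None of the 10 members was called by edgeR's quasi-likelihood test at a Benjamini-Hochberg adjusted p under 0.05 over all genes, against a background of 22 genes called, or 0.13% of those tested. At an unadjusted p under 0.05 (edgeR, as for every unadjusted p given), 4 members were lower in Mif-2-/-Apoe-/- livers, all of them class II genes, where 6.52% of all genes were. DESeq2 gave Ciita no adjusted p and called 1 member, H2-Ab1. It called 5.27% of the 14030 genes with an adjusted p in either direction. The genotypes did not overlap for 1 member, H2-DMb1, lower in Mif-2-/-Apoe-/- livers, and for 2.24% of all genes in that direction. The median log2 fold change (Mif-2-/-Apoe-/- over Apoe-/-) was -1.06 over the class II members, -0.40 over the class I members and 0.17 over all 16860 genes.

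**Figure D1:**
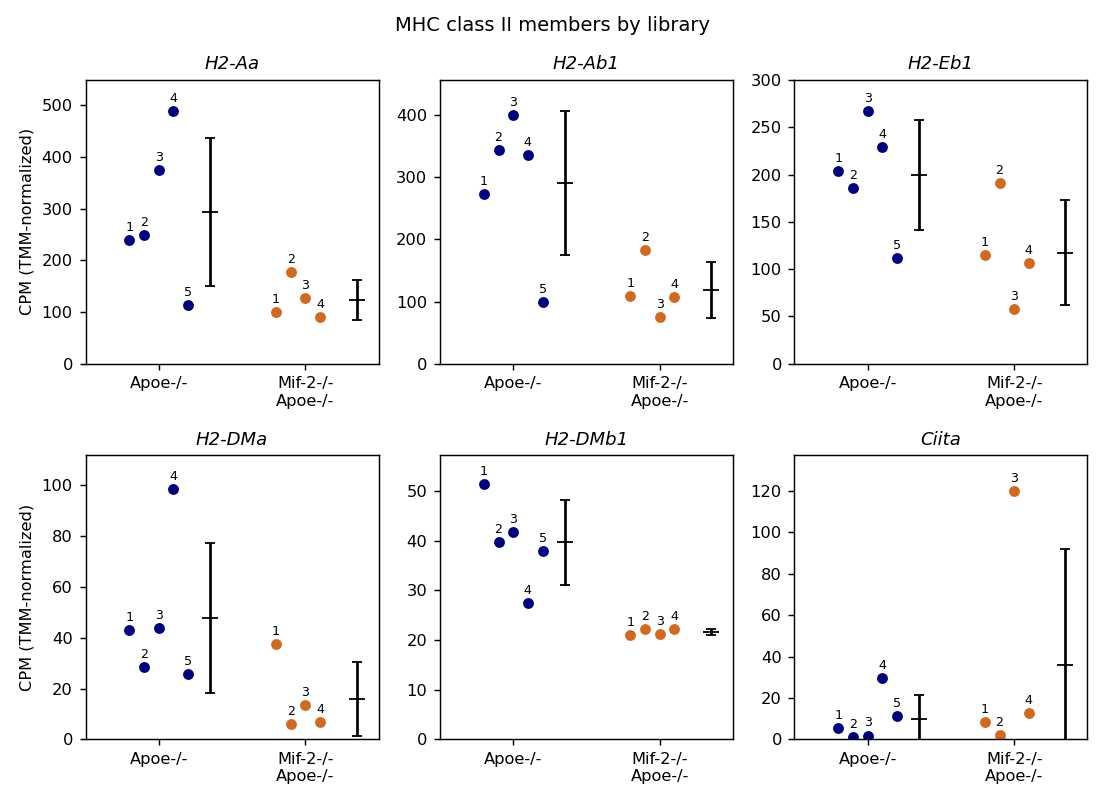
Level of the 6 class II members in each library (CPM after TMM normalization, linear axes from 0). Points are libraries with their replicate numbers, and the bar beside each group is its mean ± SD, cut at 0 for Ciita. Apoe-/- replicate 5 sits with the Mif-2-/-Apoe-/- libraries for H2-Aa, H2-Ab1 and H2-Eb1, and the groups are apart for H2-DMb1 alone.

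H2-Aa and H2-Ab1, which encode the alpha and beta chains of the I-A molecule, had the lowest unadjusted edgeR p-values among the members. H2-Aa was measured at 239, 249.5, 376, 489 and 113 CPM in Apoe-/- replicates 1 to 5 and at 100.05, 177, 127 and 90.8 CPM in Mif-2-/-Apoe-/- replicates 1 to 4. Apoe-/- replicates 1 to 4 lay above every Mif-2-/-Apoe-/- library and replicate 5 lay among them. The log2 fold change was -1.25 (SE 0.40), and the edgeR p-value was 0.00748 unadjusted and 0.177 adjusted. H2-Ab1 was at 274, 344, 399.5, 336 and 99.1 CPM in Apoe-/- and 109, 183, 75.3 and 108 CPM in Mif-2-/-Apoe-/- libraries. Here too, 4 of the 5 Apoe-/- libraries exceeded all others, and the second Mif-2-/-Apoe-/- library was the highest of its group. Its log2 fold change of -1.29 (SE 0.40) had an edgeR p-value of 0.00619 unadjusted and 0.174 adjusted, while the adjusted p from DESeq2 was 0.0475.

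Without Apoe-/- replicate 5, the log2 fold change of H2-Ab1 was -1.51 and edgeR called it (adjusted p = 0.0493), and H2-Aa was at -1.45 (adjusted p = 0.0597). With DESeq2 and the same library left out, an alternative chosen after the data were seen, both were called (adjusted p = 0.00471 for H2-Aa and 0.00048 for H2-Ab1). The ratio of H2-Aa to H2-Ab1 reads was 0.725 to 1.45 in Apoe-/- and 0.841 to 1.69 in Mif-2-/-Apoe-/- libraries, so the ranges of this ratio overlapped.

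H2-Eb1, the beta chain of I-E, was at 204, 185, 268, 229 and 112 CPM in Apoe-/- and at 114, 191, 58.0 and 106 CPM in Mif-2-/-Apoe-/- libraries. The groups overlapped at Apoe-/- replicates 2 and 5 and Mif-2-/-Apoe-/- replicates 1 and 2, and the log2 fold change of -0.77 (SE 0.37) did not pass the test (adjusted p = 0.342, edgeR). Without Mif-2-/-Apoe-/- replicate 2 it was -1.20 (adjusted p = 0.117). Its partner H2-Ea, whose promoter is deleted in the H2b haplotype of C57BL/6 mice, had 65 counts in Apoe-/- replicate 5 and at most 2 counts in any other library. The reads of H2-Ea came almost entirely from the Apoe-/- library that had the lowest H2-Aa, H2-Ab1 and H2-Eb1 levels of its group.

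The genes of the peptide editor H2-DM were both lower in Mif-2-/-Apoe-/- livers at an unadjusted p under 0.05. H2-DMa was at 43.1, 28.3, 43.7, 98.6 and 25.7 CPM in Apoe-/- and 37.4, 6.25, 13.4 and 6.86 CPM in Mif-2-/-Apoe-/- libraries, so 3 of the 4 Mif-2-/-Apoe-/- libraries lay below all Apoe-/- libraries and replicate 1 lay among them. Its log2 fold change of -1.57 (SE 0.62) was the most negative of the members (unadjusted p = 0.0235, adjusted p = 0.256, edgeR) and rested on 11 to 184 counts per Mif-2-/-Apoe-/- library. It was -2.42 (adjusted p = 0.142) without Mif-2-/-Apoe-/- replicate 1 and -1.21 (adjusted p = 0.443) without Apoe-/- replicate 4. H2-DMb1 was at 51.4, 39.8, 41.8, 27.4 and 37.9 CPM in Apoe-/- and 20.9, 22.1, 21.2 and 22.2 CPM in Mif-2-/-Apoe-/- libraries. All Mif-2-/-Apoe-/- libraries were close to each other and below every Apoe-/- library, replicate 5 included. The log2 fold change was -0.88 (SE 0.40, unadjusted p = 0.0457, edgeR adjusted p = 0.311, DESeq2 adjusted p = 0.0578), and with each library left out in turn the unadjusted p lay between 0.0233 and 0.0998. With counts thinned to the smallest library, the log2 fold change of H2-DMb1 was -0.66 (unadjusted p = 0.151, edgeR). The near-identical H2-DMb2, with which reads could be shared, was at 0 to 17.6 CPM over the 9 libraries.

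Ciita, the class II transactivator gene, went the other way in its mean, and 1 library decided that direction. It was at 5.35, 0.938, 1.88, 29.6 and 11.2 CPM in Apoe-/- and 8.54, 2.27, 119.9 and 12.6 CPM in Mif-2-/-Apoe-/- libraries, with 476 counts in Mif-2-/-Apoe-/- replicate 3. The other 3 Mif-2-/-Apoe-/- libraries lay within the range of the Apoe-/- libraries. The log2 fold change of 1.86 (SE 1.06, adjusted p = 0.418, edgeR) turned to -0.32 without that library, was 2.84 without Apoe-/- replicate 4 and was 0.42 with the share of the 10 most abundant genes as a covariate. The library with the highest Ciita level had the lowest H2-Ab1, H2-Eb1 and B2m levels of all 9. It also had the highest sums of B cell markers (79.1 CPM, against 3.98 to 37.0 CPM elsewhere) and of dendritic cell markers (149.7 CPM, against 42.2 to 97.6 CPM), and the part of these cells in the Ciita reads was not tested. The same library had a count for the most genes of all 9, 18631.

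The heavy chains of class I molecules bind the peptide and are what CD8+ T cells recognize. H2-K1 was at 1739, 1923, 1882, 2549.7 and 1158 CPM in Apoe-/- and 1567, 1533, 1214 and 1495 CPM in Mif-2-/-Apoe-/- libraries. Apoe-/- replicates 1 to 4 were above all Mif-2-/-Apoe-/- libraries and replicate 5 was the lowest of all 9, which gave a log2 fold change of -0.35 (SE 0.30, adjusted p = 0.608, edgeR). H2-D1 was at 324, 509, 537, 412 and 301 CPM and 371, 319, 385 and 152 CPM, with broad overlap and 1 low library, Mif-2-/-Apoe-/- replicate 4 (log2 fold change -0.44, SE 0.33, adjusted p = 0.557, and -0.21 without that library). H2-K1, H2-D1 and the Q genes are closely similar in sequence, and how multi-mapped reads were counted is not given in the sources used here, so the division of reads among them is uncertain.

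B2m, the light chain shared by all class I molecules, was at 705, 701, 860.1, 976 and 268 CPM in Apoe-/- and 319.7, 868, 208 and 275 CPM in Mif-2-/-Apoe-/- libraries. The values formed a high set of Apoe-/- replicates 1 to 4 with Mif-2-/-Apoe-/- replicate 2 and a low set of the other 4 libraries. The log2 fold change was -0.75 (SE 0.45, adjusted p = 0.45, edgeR) and became -1.49 (adjusted p = 0.0843) without Mif-2-/-Apoe-/- replicate 2 and -0.95 (adjusted p = 0.182) without Apoe-/- replicate 5. Tap1, a subunit of the peptide transporter, was at 91.8, 154, 58.2, 148 and 86.0 CPM in Apoe-/- and 176, 118, 89.4 and 301 CPM in Mif-2-/-Apoe-/- libraries. Its mean was higher in Mif-2-/-Apoe-/- livers, led by replicate 4, and the ranges overlapped (log2 fold change 0.67, SE 0.40, adjusted p = 0.444). Without Mif-2-/-Apoe-/- replicate 4 the log2 fold change was 0.25, and without Apoe-/- replicate 3 it was 0.41.

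**Figure D2:**
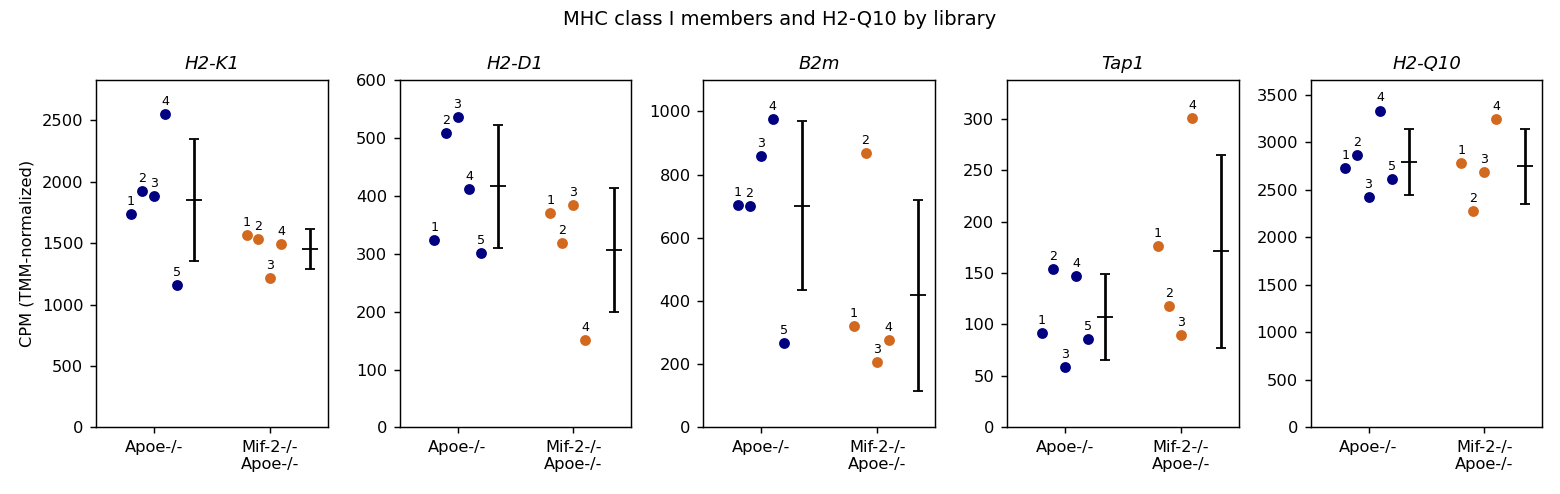
Level of the 4 class I members and of H2-Q10 in each library (CPM after TMM normalization, linear axes from 0). Points are libraries with their replicate numbers, and bars are mean ± SD. Mif-2-/-Apoe-/- replicate 2 stands with Apoe-/- replicates 1 to 4 for B2m, and H2-Q10 lies in all 9 libraries between 2279 and 3337 CPM.

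H2-Q10, the secreted class I molecule made by hepatocytes, was at 2795 ± 344 CPM in Apoe-/- and 2748 ± 396 CPM in Mif-2-/-Apoe-/- livers (SD, n = 5 and n = 4). Its log2 fold change was -0.02 (SE 0.27, adjusted p = 0.979). Among the 18 other class I and class I-like genes, 16 were tested and 0 were called by edgeR or DESeq2. Of the 16, 1 gene, H2-T23, was lower at an unadjusted p under 0.05, where 6.52% of all genes were. H2-T23, the Qa-1 gene, was at 235 against 156 CPM (log2 fold change -0.59, adjusted p = 0.313). Fcgrt, which encodes the neonatal Fc receptor, was at 435 against 262 CPM (adjusted p = 0.327), H2-T10 at 6.88 against 23.1 CPM (adjusted p = 0.348) and Azgp1, a secreted class I-like glycoprotein, at 1996 against 1630.2 CPM (adjusted p = 0.681). The list had a median log2 fold change of 0.25, close to the 0.17 of all genes. H2-Q2 and H2-T3 had a count in fewer than 3 libraries of either genotype and were not tested.

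Among the genes that load class II molecules, those with most reads had lower means in Mif-2-/-Apoe-/- livers. Cd74, the invariant chain and MIF-2 receptor, was at 126, 188, 217, 313 and 69.5 CPM in Apoe-/- and 68.9, 121, 55.2 and 75.7 CPM in Mif-2-/-Apoe-/- libraries. As for H2-Aa and H2-Ab1, Apoe-/- replicates 1 to 4 were above all Mif-2-/-Apoe-/- libraries and replicate 5 was among the Mif-2-/-Apoe-/- libraries (log2 fold change -1.19, SE 0.42, unadjusted p = 0.0126, adjusted p = 0.205, edgeR). Lgmn, the asparaginyl endopeptidase of the endosome, was at 237 against 121 CPM (log2 fold change -0.97, SE 0.31, edgeR adjusted p = 0.175, DESeq2 adjusted p = 0.0369). Ctsl, the endosomal protease cathepsin L, was at 500.2 against 208 CPM (log2 fold change -1.27, adjusted p = 0.263), and Ifi30, the lysosomal thiol reductase GILT, at 134 against 93.2 CPM (adjusted p = 0.543). Of the 14 genes of this class II pathway list, 10 had a fold change below 0, 3 had an unadjusted p under 0.05 in that direction and 1 in the other, and the median was -0.77. Over all genes tested, 43.5% had a fold change below 0, and 6.52% were lower and 8.99% higher at an unadjusted p under 0.05. None of the 14 was called by edgeR, and DESeq2 called Lgmn alone, where it called 5.27% of all genes with an adjusted p. The gene in the other direction was H2-Eb2, with 7 and 28 counts in Mif-2-/-Apoe-/- replicates 2 and 3, 0 in replicates 1 and 4 and at most 2 in any Apoe-/- library. H2-Oa, H2-Ob, Marchf1 and Rfx5, also in that list, were at most 15.7 CPM in any library.

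On the class I side, 9 of 13 genes of the peptide supply and loading list had a fold change below 0 (43.5% of all genes), 3 of them with an unadjusted p under 0.05 (6.52% of all genes), none was called by edgeR or DESeq2, and the median was -0.52. The 3 were Calr (calreticulin, a chaperone of the loading complex) at 101 against 39.9 CPM, Pdia3 (the thiol oxidoreductase ERp57) at 41.4 against 19.6 CPM and Psme2 (a subunit of the interferon-inducible proteasome activator) at 261 against 146 CPM. Their log2 fold changes were -1.34, -1.08 and -0.84, with adjusted p-values of 0.22, 0.302 and 0.272 by edgeR. Psmb10, an immunoproteasome subunit, was at 318 against 223 CPM (adjusted p = 0.554), and Psme1, the partner of Psme2, at 286 against 316 CPM (adjusted p = 0.884). Nlrc5, the class I counterpart of Ciita, was at 80.2 against 92.3 CPM (log2 fold change 0.21, adjusted p = 0.872). Psmb9, whose transcription starts beside Tap1 on the opposite strand, was at 49.8 against 43.0 CPM (log2 fold change -0.21, adjusted p = 0.866) where Tap1 had 0.67. Psmb9 and Tap1 overlap in their annotated ends, and strand handling is not given in the sources used here, so reads there cannot be assigned to one of them.

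**Figure D3:**
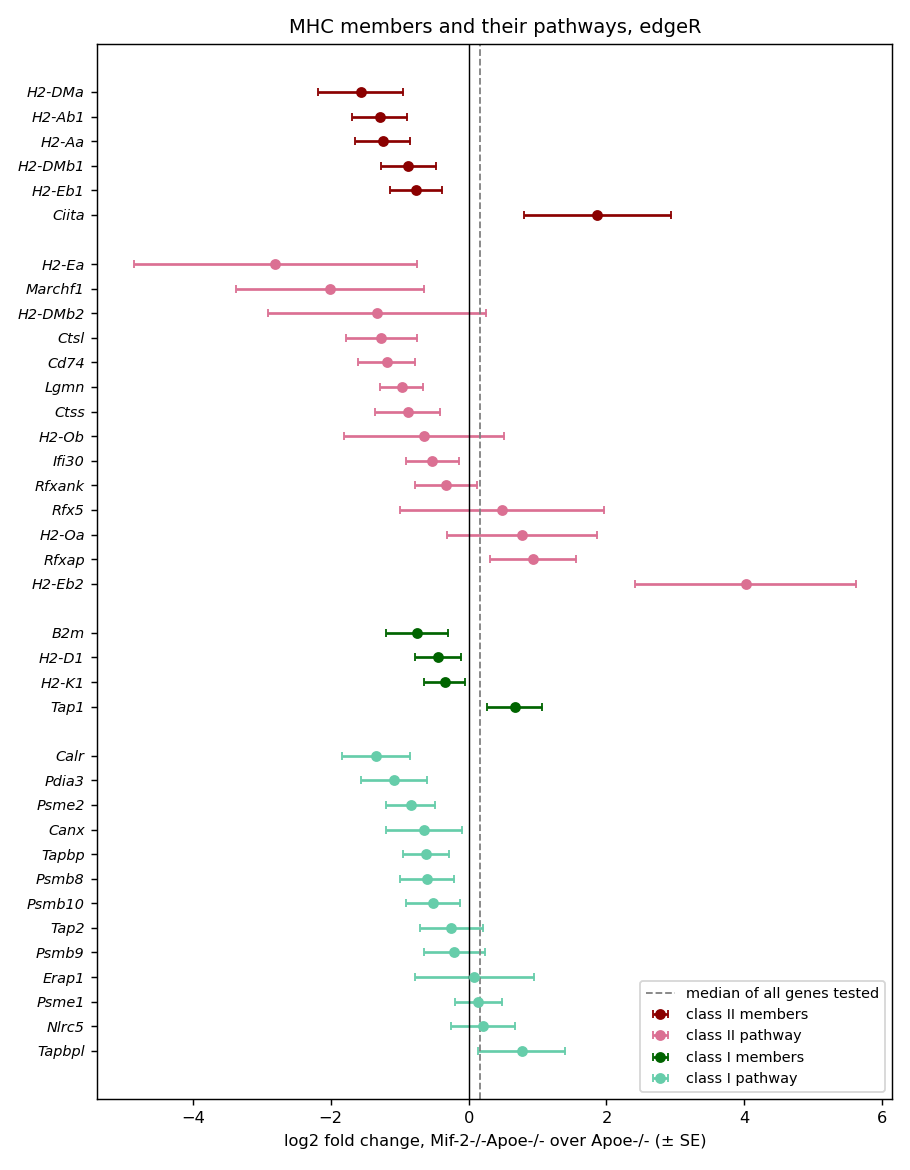
Log2 fold change (Mif-2-/-Apoe-/- over Apoe-/-, edgeR) with its SE for the members and for the genes of the class II and class I pathway lists. The dashed line is the median of all genes tested, 0.17. Within each list, genes are sorted by fold change, and the class II list has 5 of 6 members and 10 of 14 pathway genes left of 0; H2-Ea and H2-Eb2 have at most 3 counts per library in one genotype.

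Interferon-response genes were divided in direction. Among 26 tested, 15 had a fold change above 0 (56.5% of all genes) and 11 below, 2 were higher (8.99% of all genes) and 1 lower (6.52%) at an unadjusted p under 0.05, none was called by edgeR, and the median was 0.14. Stat2, part of the type I interferon complex, was at 266 against 482 CPM (log2 fold change 0.86, adjusted p = 0.305). Ifit1, a type I interferon target, was at 5.11 against 19.9 CPM (log2 fold change 1.96, edgeR adjusted p = 0.208, DESeq2 adjusted p = 0.0311). It was the only gene of the list called by DESeq2, which called 5.27% of all genes with an adjusted p. The genotypes overlapped for Ifit1, with 5.72 CPM in Mif-2-/-Apoe-/- replicate 4 and 6.57 CPM in Apoe-/- replicate 3. Irf7 and Igtp, among the most abundant genes of the list per length, were at 302 against 409.9 CPM and 110.3 against 144 CPM (adjusted p = 0.479 and 0.645). The costimulatory genes were scarce, with Cd40 at 9.80 against 10.3 CPM, Cd86 at 4.41 against 6.36 CPM and Icosl at 5.75 against 0.994 CPM, and of 3 tested none was called by either tool and none had an unadjusted edgeR p under 0.05.

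The cell types that carry class II molecules were followed through marker lists. In these lists edgeR called no gene, and DESeq2 called Cd5l and Cd3d, where it called 5.27% of all genes with an adjusted p. Kupffer cell markers summed to 1059 to 2715 CPM in Apoe-/- and 1279.7 to 1813 CPM in Mif-2-/-Apoe-/- libraries. Of 9 tested, with a median log2 fold change of -0.47, 7 had a fold change below 0 (43.5% of all genes) and 2 had an unadjusted p under 0.05 in that direction (6.52% of all genes), namely Cd5l at 469.6 against 205 CPM (log2 fold change -1.20, edgeR adjusted p = 0.175, DESeq2 adjusted p = 0.0348) and C1qa at 368 against 169.7 CPM (log2 fold change -1.12, adjusted p = 0.242). Clec4f, which defines Kupffer cells in mice, was at 835 against 852 CPM (log2 fold change 0.03, SE 0.30, adjusted p = 0.974), and C1qc at 268 against 154 CPM (adjusted p = 0.351). Monocyte and macrophage markers summed to 366 to 621 CPM in Apoe-/- and 318 to 504 CPM in Mif-2-/-Apoe-/- libraries, with 3 of 7 fold changes above 0 (56.5% of all genes) and a median of -0.07 (log2). Lyz2 (lysozyme) was the 1 of 7 lower at an unadjusted p under 0.05, where 6.52% of all genes were (263 against 141 CPM, log2 fold change -0.90, adjusted p = 0.302). Cd68, a lysosomal glycoprotein, was at 82.1 against 78.7 CPM (adjusted p = 0.957). Csf1r, the receptor of macrophage colony-stimulating factor, was at 149.8 against 185 CPM (adjusted p = 0.688), and Itgam (CD11b) at 4.63 against 10.2 CPM (adjusted p = 0.649). Macrophage markers had fold changes in both directions beside the lower class II means, and the part of macrophage number or state in them was not tested.

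Dendritic cell markers summed to 42.2 to 97.6 CPM in Apoe-/- and 60.8 to 149.7 CPM in Mif-2-/-Apoe-/- libraries. Of 8 fold changes, 6 were above 0 (56.5% of all genes), with a median of 1.04 (log2), against 0.17 over all genes. Of the 8, 1 did not overlap between the genotypes, where 2.03% of all genes did not overlap and were higher in Mif-2-/-Apoe-/- livers. It was Itgax (CD11c), at 10.02, 7.64, 4.23, 10.9 and 5.81 CPM in Apoe-/- and 12.4, 13.6, 43.8 and 19.2 CPM in Mif-2-/-Apoe-/- libraries (log2 fold change 1.52, adjusted p = 0.269). Batf3, a factor of cross-presenting dendritic cells, was at 38.2 against 44.0 CPM (adjusted p = 0.908), while Xcr1 was at 0 to 9.83 CPM and Cd209a at 0 to 19.9 CPM over the 9 libraries. Itgax, Xcr1 and Cd209a were all highest in Mif-2-/-Apoe-/- replicate 3. B cell markers summed to 7.26 to 37.0 CPM in Apoe-/- and 3.98 to 79.1 CPM in Mif-2-/-Apoe-/- libraries, with Cd79a, Cd79b and Ms4a1 between 0 and 14.1 CPM, and 0 of 6 had an unadjusted p under 0.05. T and NK cell markers summed to 12.8 to 37.1 CPM in Apoe-/- and 15.1 to 32.5 CPM in Mif-2-/-Apoe-/- libraries. Of their 7 genes, Cd3d was at 1.55 to 7.86 CPM in Apoe-/- and 0 to 0.686 CPM in Mif-2-/-Apoe-/- libraries (edgeR adjusted p = 0.184, DESeq2 adjusted p = 0.0193). These Mif-2-/-Apoe-/- levels are 0 to 3 counts per library. Cd3e went the other way (log2 fold change 4.81, edgeR unadjusted p = 0.0084, adjusted p = 0.179), at 26.1 CPM in Mif-2-/-Apoe-/- replicate 2 and at most 1.01 CPM elsewhere. Both encode subunits of the T cell receptor complex. Sinusoidal endothelial, stellate and cholangiocyte lists had medians of -0.08, 0.12 and -0.09, with no gene at an unadjusted p under 0.05, called by edgeR or called by DESeq2. Hepatocyte markers summed to 63936 to 199205 CPM in Apoe-/- and 63748 to 196478 CPM in Mif-2-/-Apoe-/- libraries. Of the 4 tested, Tat was higher at an unadjusted p under 0.05, where 8.99% of all genes were (317 against 655 CPM, adjusted p = 0.229). Serpina1c was at 4085 against 2232 CPM (adjusted p = 0.344) and Cyp2e1 at 1404 against 826 CPM (adjusted p = 0.33).

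Several members ordered the libraries by composition as well as by genotype. Taking the 4 libraries with the lower share of the 10 most abundant genes and then the 5 with the higher share, H2-Ab1 was at 99.1 CPM in Apoe-/- replicate 5 and 75.3 to 109 CPM in Mif-2-/-Apoe-/- replicates 1, 3 and 4, and at 183 CPM in Mif-2-/-Apoe-/- replicate 2 and 274 to 399.5 CPM in Apoe-/- replicates 1 to 4. Within the first set the single Apoe-/- library lay within the range of the Mif-2-/-Apoe-/- libraries, and within the second the single Mif-2-/-Apoe-/- library was the lowest. H2-Aa had the same arrangement. B2m was at 268 CPM in Apoe-/- replicate 5 and 208 to 319.7 CPM in Mif-2-/-Apoe-/- replicates 1, 3 and 4, and at 868 CPM in Mif-2-/-Apoe-/- replicate 2 and 701 to 976 CPM in Apoe-/- replicates 1 to 4, so that the genotypes overlapped within both sets. With that share as a covariate in the edgeR fit, the log2 fold change of H2-Aa went from -1.25 to -0.81, that of H2-Ab1 from -1.29 to -0.86 and that of H2-Eb1 from -0.77 to -0.46, with adjusted p-values of 0.405, 0.319 and 0.611. For B2m it went from -0.75 to -0.34. For H2-DMb1 it was -0.88 with the covariate and -0.88 without, and for H2-DMa -1.99 and -1.57. With the covariate, their adjusted p-values were 0.461 for H2-DMb1 and 0.376 for H2-DMa. With 1 library of the other genotype in each set, composition and genotype overlap in large part.

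**Figure D4:**
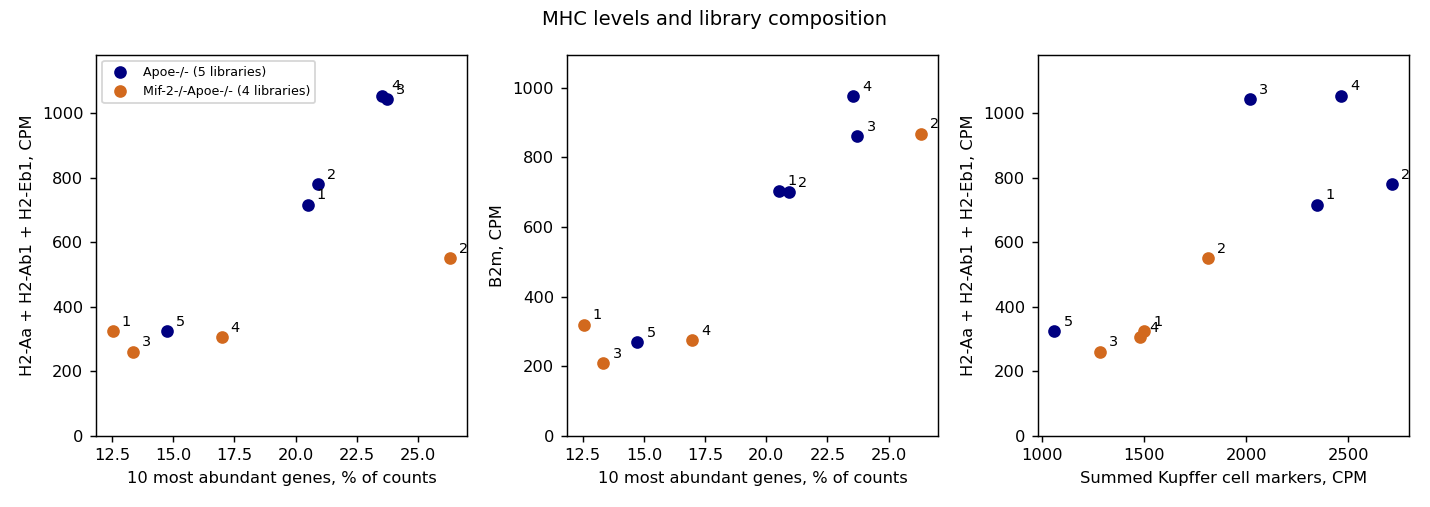
Summed level of H2-Aa, H2-Ab1 and H2-Eb1 (left) and level of B2m (middle) against the percent of counts taken by the 10 most abundant genes, and the same class II sum against the summed Kupffer cell markers (right), in CPM with 1 point per library and its replicate number. Apoe-/- replicate 5 lies in the lower left with Mif-2-/-Apoe-/- replicates 1, 3 and 4 in every panel, and Mif-2-/-Apoe-/- replicate 2 lies at the right end of the left and middle panels.

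The likeness of the members across libraries was described within genotypes. After subtraction of each genotype's mean, Pearson's r of log2(CPM + 0.5) over the 9 libraries was 0.82 between H2-Aa and H2-Ab1, 0.89 between H2-Ab1 and H2-Eb1 and 0.93 between H2-Eb1 and B2m. H2-DMa and H2-DMb1, the chains of H2-DM, had an r of -0.44, H2-K1 and H2-D1 of 0.23, and Ciita and H2-Ab1 of -0.56. Cd74 had an r of 0.94 with the mean profile of H2-Aa, H2-Ab1 and H2-Eb1. Among 8143 other genes that averaged 10 CPM or more, those most like that profile were Slc9a3r1, Dad1, Anp32a, Ndufs7 and Trappc5, each with an r of 0.98. Those most like the mean of H2-K1, H2-D1 and B2m were Mgst1 (r = 0.98), Cyp2j5 (0.98), Rarres2 (0.97), Gstm6 (0.97) and Mpc1-ps (0.97). These values describe 9 points that share the same library compositions, and Cyp2e1, a hepatocyte enzyme, had an r of 0.90 with the class II profile.

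Per length of annotated exons, B2m and H2-K1 had the highest levels of the members and Ciita the lowest. The length is the union of exons over all annotated transcripts of a gene, 1 for B2m and 16 for H2-K1. Whether reads covered transcripts evenly along their length was not tested, so the order between genes is approximate. B2m was at 816 ± 312 CPM per kb in Apoe-/- and 486 ± 353 CPM per kb in Mif-2-/-Apoe-/- livers, and H2-K1 at 629.8 ± 169 CPM per kb in Apoe-/- and 494 ± 55.0 CPM per kb in Mif-2-/-Apoe-/- livers. They were not apart, B2m being the higher in 5 of 9 libraries, and H2-D1 was lower, at 162 ± 41.1 CPM per kb in Apoe-/- and 119 ± 41.6 CPM per kb in Mif-2-/-Apoe-/- livers. H2-K1 exceeded H2-D1 in all 9 libraries without overlap. The I-A and I-E chains followed, H2-Ab1 at 113 ± 45.1 CPM per kb in Apoe-/- and 46.2 ± 17.7 CPM per kb in Mif-2-/-Apoe-/- livers, H2-Eb1 at 103 ± 29.8 CPM per kb in Apoe-/- and 60.5 ± 28.4 CPM per kb in Mif-2-/-Apoe-/- livers and H2-Aa at 77.2 ± 37.8 CPM per kb in Apoe-/- and 32.5 ± 10.1 CPM per kb in Mif-2-/-Apoe-/- livers, with overlapping ranges. H2-DMb1 was at 23.6 ± 5.12 CPM per kb in Apoe-/- and 12.9 ± 0.384 CPM per kb in Mif-2-/-Apoe-/- livers, Tap1 at 19.6 ± 7.60 CPM per kb in Apoe-/- and 31.3 ± 17.1 CPM per kb in Mif-2-/-Apoe-/- livers, H2-DMa at 13.9 ± 8.56 CPM per kb in Apoe-/- and 4.63 ± 4.25 CPM per kb in Mif-2-/-Apoe-/- livers and Ciita at 1.03 ± 1.24 CPM per kb in Apoe-/- and 3.76 ± 5.90 CPM per kb in Mif-2-/-Apoe-/- livers, each overlapping its neighbour in the order. For comparison, Cd74 was at 109 ± 55.1 CPM per kb in Apoe-/- and 47.8 ± 17.0 CPM per kb in Mif-2-/-Apoe-/- livers and H2-Q10 at 643 ± 79.1 CPM per kb in Apoe-/- and 632 ± 91.0 CPM per kb in Mif-2-/-Apoe-/- livers.

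**Figure D5:**
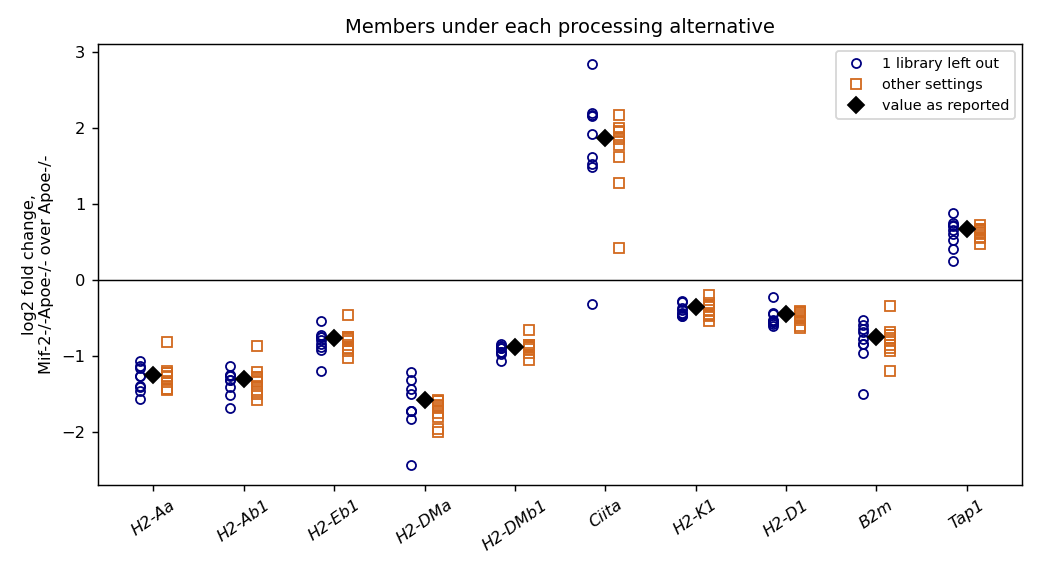
Log2 fold change (Mif-2-/-Apoe-/- over Apoe-/-) of each member as reported (diamonds), beside its values from edgeR with 1 library left out (circles) and from all other settings, DESeq2 among them (squares). Ciita crosses 0 without Mif-2-/-Apoe-/- replicate 3, and the other 9 members keep their direction under every setting shown.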

How the data were processed

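Bulk RNA of 9 liver samples was sequenced, and the labels' genotype set the groups. The authors lysed frozen sections, made Smart-seq2 cDNA, used FastQC for read quality, cutadapt for trimming and HISAT2 for alignment (mm10, per the submitters' processing notes) and deposited whole-number counts of exon reads per Entrez gene, without normalization. The counter, strand setting, and handling of multi-mapped and duplicate reads are not given in the sources used here. Whether the libraries are separate mice is not in the labels, and p-values measure the spread between these samples. The study states 4 mice per group, and all 5 Apoe-/- libraries were kept.

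The table held 27179 genes and 1 line without a gene, which was left out, and 25275 genes had a RefSeq symbol. A gene entered the test if 3 or more libraries of one genotype had 1 count or more, and the 10 genes of highest mean CPM were set aside, steps that the study describes for a separate experiment on liver lysates and, in general terms, for its bulk RNA-seq. On the 16860 genes left, edgeR 4.0.16 in R 4.3.3 gave quasi-likelihood p-values after TMM normalization, which were Benjamini-Hochberg adjusted with a threshold of 0.05. Standard errors were obtained as log2 fold change over the root of F. The alternative, DESeq2 1.42.0, took every gene with a count and gave no adjusted p for 9102 genes, Ciita included. Depth was 2318148 to 10764182 counts, at which 3 counts are 0.402 to 1.7 CPM, a limit that covers counting error only. Levels per length used GENCODE M21 exon unions. Figures used Python 3.11.15 and matplotlib 3.10.9.

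The members and lists were chosen with earlier results of these data known. Named genes are the 10 members, per list those called, up to 3 with the lowest p and up to 3 with the highest level per length, the 5 most alike per class profile, and Ddt and Apoe. Further genes named for context were chosen after their values were seen. Alternatives were RLE and TMMwsp factors, no filter, filterByExpr, the 10 genes kept, DESeq2, a replicate block, the share of the 10 genes as covariate, counts thinned to the smallest library, and each library left out. The scripts were tested on simulated data. Some genes are not reported here.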

Additional observations from a re-analysis of the deposited data

Results flagged for a closer look

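In 20 groups (10 members in 2 genotypes), 3 libraries stood apart from the rest of their group by Dixon's criterion, which chance flags in about 1 group in 20. H2-DMa was at 98.6 CPM in Apoe-/- replicate 4, where the other Apoe-/- libraries were between 25.7 and 43.7 CPM. Ciita was at 119.9 CPM in Mif-2-/-Apoe-/- replicate 3, where the others were between 2.27 and 12.6 CPM. B2m was at 868 CPM in Mif-2-/-Apoe-/- replicate 2, where the others were between 208 and 319.7 CPM.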

How the results depend on the processing

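Of 190 member values under 19 alternatives, 183 kept their direction and their side of the threshold, 6 were past the threshold in the same direction and 1 turned. Ciita turned to -0.32 without Mif-2-/-Apoe-/- replicate 3 and reached 2.84 without Apoe-/- replicate 4. The count of members called, 0 as reported, was 1 with DESeq2 (H2-Ab1), 2 with DESeq2 without Apoe-/- replicate 5 (H2-Aa and H2-Ab1, added after seeing the data), and 0 to 1 with each library left out in turn, the 1 being H2-Ab1 without Apoe-/- replicate 5. With the replicate block it was 2 (H2-Aa, adjusted p = 0.0376, and H2-Ab1, adjusted p = 0.0205), and edgeR called 560 genes in all where it called 22 without the block. The block leaves Apoe-/- replicate 5 out of the comparison, since no other library has that number. Same-numbered libraries deviated with an r of 0.124, 0.00819, 0.0613 and -0.012, and differently numbered ones with an r of -0.171 to 0.188. With values this few and overlapping, whether the numbers pair the libraries cannot be decided, and the labels do not say. The number of genes called in all was 126 without Apoe-/- replicate 5 and 262 without Mif-2-/-Apoe-/- replicate 2. The median over the class II members was -0.84 to -1.31 and that over the class I members -0.27 to -0.58 over all alternatives, each within the spread between libraries. TMMwsp factors moved the median of all genes from 0.17 to -0.0015, and the class II and class I medians to -1.24 and -0.58. Ciita, H2-DMa and the scarce genes of the pathway rest on few reads in some libraries.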

Other observations

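Apart from Ciita, some scarce immune genes had most of their reads in 1 library. In Mif-2-/-Apoe-/- replicate 3, H2-T3 was at 24.9 CPM and at most 1.70 CPM in any other library, and H2-M2 was at 41.1 CPM and at most 6.10 CPM elsewhere. In Apoe-/- replicate 5, H2-DMb2 was at 17.6 CPM and at most 3.98 CPM elsewhere, Icosl was at 22.7 CPM and at most 3.76 CPM elsewhere, and Cd80 was at 6.39 CPM and at most 1.60 CPM elsewhere. These genes were picked after their values were seen, and their levels in single libraries were not tested. Mif-2-/-Apoe-/- replicate 3 and Apoe-/- replicate 5 also had a count for the most genes, 18631 and 18587, against 14220 to 17335 in the other libraries. Mif-2-/-Apoe-/- replicate 3 was the library least like the others, with an r of 0.687 to 0.758 over the genes tested. Scattered reads in these libraries were therefore not particular to immune genes. Cd1d1, the lipid-presenting class I-like gene, was at 307 CPM in Mif-2-/-Apoe-/- replicate 1 and between 106 and 129.9 CPM in the other 8 libraries.

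The ratio of B2m to H2-K1 reads divided the libraries as B2m itself did, at 0.364 to 0.457 in Apoe-/- replicates 1 to 4 and 0.566 in Mif-2-/-Apoe-/- replicate 2, against 0.231 in Apoe-/- replicate 5 and 0.172 to 0.204 in Mif-2-/-Apoe-/- replicates 1, 3 and 4.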
